A study of Mus musculus with 7 samples.

Results

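The TAM receptors Axl, Mertk and Tyro3 and their ligands Gas6 and Pros1 were read in single cells of mouse atypical teratoid rhabdoid tumours, brain tumours driven by loss of the chromatin remodelling subunit Smarcb1. These 5 genes of the 19415 listed over all tables were taken by symbol. All 5 were listed in 4 of the 7 tables. Tyro3 was not listed for MYC replicates 2, 3 and 4 and counts as 0 there.

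TAM receptors are receptor tyrosine kinases that let phagocytes recognise dying cells and that damp inflammatory signalling. Their ligands bridge the receptor to phosphatidylserine, a lipid that dying cells expose, and bind it only after vitamin K-dependent carboxylation. Gas6 activates all members of the receptor family, whereas protein S, the product of Pros1, acts through Tyro3 and Mertk. In brain, microglia use Mertk and Axl and neurons carry Tyro3. In many cancers Axl is found on tumour cells with mesenchymal features.

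All tumours came from Rosa26-creERT2::Smarcb1 fl/fl mice, in which a ubiquitous tamoxifen-inducible Cre deletes Smarcb1, after tamoxifen at 50 mg/kg on day 6.5 post coitum. Every group carries this deletion, and no untreated or Smarcb1-intact tissue was analysed here. The MYC subgroup has 5 libraries of 4 animals. MYC replicates 1 and 5 are tumours of the basal cerebrum at 12 and 27 weeks of age, MYC replicates 2 and 3 from the trigeminal nerve and the lateral cerebellum at 19 weeks, and MYC replicate 4 from the trigeminal nerve at 21 weeks. The titles of MYC replicates 2 and 3 share a number, so they were summed as 1 animal. The SHH subgroup has 2 libraries of 2 animals, both from the striatum and subventricular zone, at 14 and 16 weeks. No site occurs in both subgroups, and the effects of site and of subgroup cannot be told apart.

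Living cells (7-AAD negative) were profiled by droplet RNA sequencing from the 3' end, in which each captured molecule carries a unique molecular identifier (UMI). The 7 tables held 24433 barcodes and 143274671 UMIs, and 21899 cells were kept. The library of MYC replicate 5 held 111985990 UMIs, and the other 6 libraries held 2150925 to 9771059. At most 2.77% of the barcodes of the smaller library of any pair occurred in both. Cells were gated on raw marker UMIs, none of them from the 5 genes. The tumour gate took cells with 3 or more UMIs of tumour markers and almost no leukocyte UMIs, 4297 cells in MYC and 1376 in SHH tumours. The macrophage/microglia gate required Csf1r, 5 or more C1q UMIs and 3 or more leukocyte UMIs, 2151 cells in MYC and 1755 in SHH tumours. Levels are CPM, the UMIs of a gene for every 1000000 UMIs of the gated cells, which cannot be compared between genes. Cells that fell in no gate held 24.4% to 43.4% of the UMIs of each gene.

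Smarcb1 itself checked the gates. It lay between 0 and 6.91 CPM in tumour-gated cells of the 7 libraries and averaged 43.9 ± 14.2 CPM in macrophage/microglia-gated cells (SD, n = 6 animals). Mural-gated cells of MYC replicate 5 held 3.75 CPM, inside the range of tumour-gated cells. The T-cell gate gives the level that free RNA can leave in cells that should lack a gene. It rests on Cd3d, Cd3e and Cd3g, and it held 2562 cells over all libraries.

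In GRCm38, the assembly that mm10 names, the annotation places Axl on chromosome 7 (25757273 to 25788705, minus strand), Mertk on chromosome 2 (128698956 to 128802894, plus strand), Tyro3 on chromosome 2 (119797733 to 119818104, plus strand), Gas6 on chromosome 8 (13465374 to 13494490, minus strand) and Pros1 on chromosome 16 (62854307 to 62929346, plus strand). All 5 are protein-coding. Gas6 overlaps the end of Tmem255b on the opposite strand, and Mertk overlaps the antisense gene Gm14011 and the small nucleolar RNA gene Gm23172. Whether the counting used strand is not given in the sources used here. Tmem255b had at most 9 UMIs in the tumour-gated cells of any library, against 1087 of Gas6 in those of MYC replicate 5.

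The promoter windows of Axl and Mertk are shown because the results turn on these receptors: Mertk was found in macrophages and microglia, and Axl there and in tumour cells of MYC tumours. Each window runs from 250 bases before to 50 bases after the annotated start (RefSeq, GRCm38.p6), 5′ to 3′ on the strand of the gene, with GC boxes (GGGCGG on either strand) in capitals. The Axl window is chr7:25788684-25788983 (minus strand) and the Mertk window chr2:128698665-128698964 (plus strand).
Axl: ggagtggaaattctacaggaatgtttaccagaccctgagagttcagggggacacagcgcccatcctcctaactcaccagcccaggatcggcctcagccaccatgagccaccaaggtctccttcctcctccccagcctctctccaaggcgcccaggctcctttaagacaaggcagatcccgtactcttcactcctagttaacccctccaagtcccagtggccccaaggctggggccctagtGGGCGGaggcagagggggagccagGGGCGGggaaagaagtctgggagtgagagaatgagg
Mertk: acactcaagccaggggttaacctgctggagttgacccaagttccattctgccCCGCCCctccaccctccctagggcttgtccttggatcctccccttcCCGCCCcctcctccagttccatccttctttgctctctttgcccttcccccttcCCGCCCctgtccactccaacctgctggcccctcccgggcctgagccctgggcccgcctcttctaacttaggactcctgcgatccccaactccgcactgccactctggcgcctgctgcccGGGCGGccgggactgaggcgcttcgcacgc
The Axl window holds 2 GC boxes and the Mertk window 4. Of 32851 such windows in the genome, 35.7% hold a GC box. The AP-1 motif TGANTCA, in 7.81% of all windows, was in neither. These are letter matches, and 3' end reads do not show which start site was used.

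Axl was abundant in macrophages and microglia of both subgroups and was also carried by tumour cells of most MYC tumours, but hardly by those of SHH tumours. In tumour-gated cells Axl held 5.07, 123.8, 92.4, 147.6 and 48.5 CPM in MYC replicates 1 to 5, against 0 and 2.10 CPM in SHH replicates 1 and 2. The 0 stands for 0 of 1302457 UMIs, which allows up to 2.30 CPM. Every MYC library lay above both SHH libraries, but how many of all genes split the libraries in this way was not counted. Over animals Axl averaged 75.9 ± 62.2 CPM in MYC tumour-gated cells and 1.05 ± 1.48 CPM in SHH tumour-gated cells (SD, n = 4 and 2).

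This difference in Axl did not pass the test over all genes. The log2 fold change of MYC over SHH was 5.98 (SE 1.62, edgeR quasi-likelihood adjusted p = 0.0749, fitted on animals). It passed without MYC replicate 1 (log2 fold change 6.39, adjusted p = 0.0246) and with DESeq2 (6.17, adjusted p = 6.3e-05). With any other animal left out it did not pass. In this comparison 746 of 10795 genes passed, 6.91%, and 0 of the 3 members tested did, although 1 had an unadjusted p under 0.05 and 1 passed with DESeq2. Without SHH replicate 1 or SHH replicate 2 only 24 and 13 genes passed. Among libraries sequenced in 2 runs Axl had 48.5 CPM in MYC replicate 5 and 0 CPM in SHH replicate 1. Among those sequenced in 1 run the MYC libraries lay between 5.07 and 147.6 CPM and SHH replicate 2 at 2.10 CPM.

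**Figure D1:**
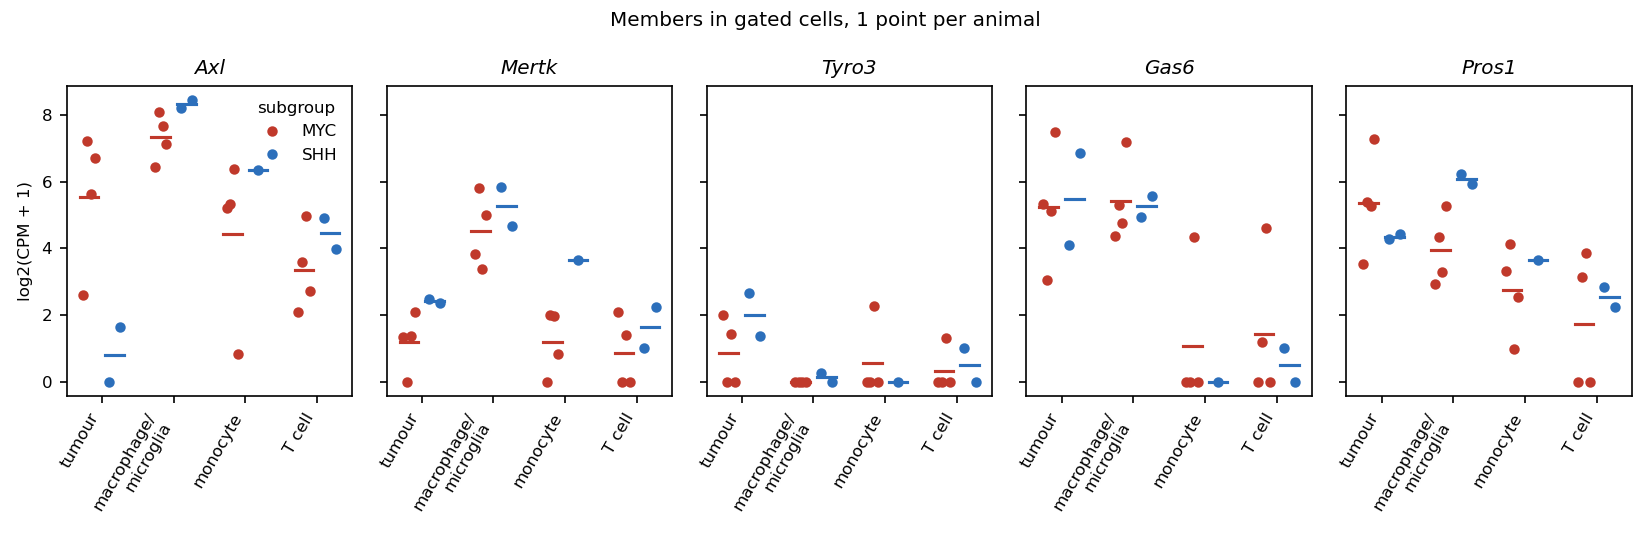
Level of each gene in gated cells as log2(CPM + 1), 1 point per animal with 20 or more cells in the gate and a bar at the mean, MYC left of SHH. Axl in tumour cells averaged 75.9 ± 62.2 CPM in MYC and 1.05 ± 1.48 CPM in SHH, a difference that did not pass the test. Mertk is highest in the macrophage/microglia gate. Monocytes are those without a tumour marker UMI.

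T-cell-gated cells of the same libraries gave Axl at 3.25, 0, 9.82, 11.1 and 30.2 CPM in MYC replicates 1 to 5 and at 28.8 and 14.9 CPM in SHH replicates 1 and 2. Both SHH libraries had less Axl in tumour-gated than in T-cell-gated cells. The tumour-gated level of MYC replicate 1 is close to its T-cell level, and Axl in tumour cells is therefore read from MYC replicates 2 to 5. After each cell was thinned to 1000 UMIs, Axl was in 10.0% (7 of 70), 9.30% (8 of 86), 9.84% (6 of 61) and 4.96% (195 of 3934) of the tumour-gated cells of MYC replicates 2, 3, 4 and 5, and in 0% (0 of 398) and 0.327% (3 of 918) of those of SHH replicates 1 and 2. In MYC replicate 5 the Wilson 95% interval of 4.32% to 5.68% lay above that of its T-cell-gated cells, 1.88% to 3.99%. Median depth there was 7254.5 UMIs in tumour-gated cells and 4893 in T-cell-gated cells, and unthinned the shares were 28.7% and 15.2%. Intervals cover counting error only.

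Transcripts of macrophages were also counted in the tumour gate. The 7 macrophage/microglia markers summed to 33.9 to 212 CPM in tumour-gated cells of the 5 MYC libraries. They summed to 299 CPM in SHH replicate 1 and 64.5 CPM in SHH replicate 2. Csf1r and Fcgr3 were at 0 in MYC replicates 2 and 4, and all 7 markers were detected in the other 5 libraries. The tumour-gated sums of MYC replicates 2 and 4, 500984 and 413383 UMIs, allow up to 5.99 and 7.26 CPM at a count of 0. The part of macrophage transcripts in the Axl of tumour-gated cells was not tested. Tumour-gated cells with 3 or more Col1a2 and Col3a1 UMIs and no keratin UMI, a mesenchymal-type class set after the values were seen, held Axl at 7.54, 132.5, 93.2, 141.3 and 50.7 CPM in MYC replicates 1 to 5. Their Smarcb1 was 0 to 2.51 CPM. The 79 keratin-holding cells of MYC replicate 5 held Axl at 23.7 CPM, below its T-cell level. With all cells holding a collagen UMI left out, 403 tumour-gated cells of MYC replicate 5 and 377 and 887 of SHH replicates 1 and 2 gave a log2 fold change of Axl of 4.87, a description with 1 animal on the MYC side.

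**Figure D2:**
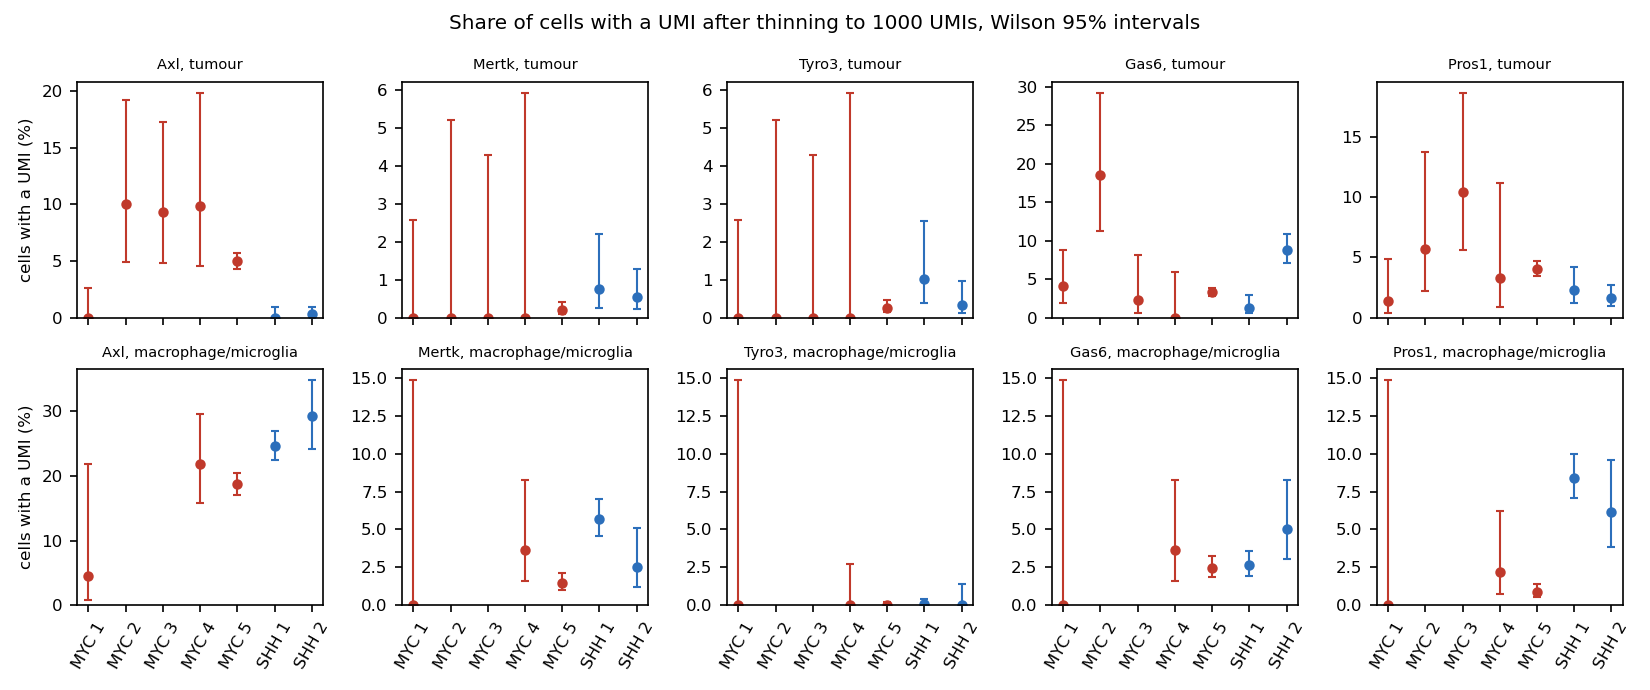
Share of tumour-gated (top) and macrophage/microglia-gated (bottom) cells with a UMI of each gene after thinning to 1000 UMIs, by library, MYC libraries in red and SHH libraries in blue, with Wilson 95% intervals. MYC replicates 2 and 3 have under 20 macrophage/microglia-gated cells each and are not drawn there. Axl was in 9.84% of tumour-gated cells of MYC replicate 4 and in 0% of those of SHH replicate 1.

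In macrophages and microglia Axl was present in every library. Macrophage/microglia-gated cells held 86.2, 112.6, 145.1, 271.4 and 202.2 CPM in MYC replicates 1 to 5, where replicates 2 and 3 have 8 and 18 cells, against 294.2 and 346.7 CPM in SHH replicates 1 and 2. All lay far above the T-cell levels of their libraries. By animal the mean was 174 ± 80.2 CPM in MYC and 320 ± 37.2 CPM in SHH (SD, n = 4 and 2). The log2 fold change of -0.999 (SE 0.46) did not pass (edgeR adjusted p = 0.379). Here 91 of 6295 genes passed, 1.45%, and 0 of the 4 members tested, with 1 at an unadjusted p under 0.05 and 1 passing with DESeq2.

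The tumour-against-macrophage difference in Axl was itself different between the subgroups. On log2(CPM + 1), tumour-gated cells lay below macrophage/microglia-gated cells of the same animal with differences of -3.84, -0.42, -0.87 and -2.04 in the animals of MYC replicate 1, MYC replicates 2 and 3, MYC replicate 4 and MYC replicate 5, and of -8.21 and -6.81 in SHH replicates 1 and 2. All 6 animals had less Axl in tumour cells, and the SHH animals had the larger gaps. The gate difference over both subgroups was -3.57 (SE 1.23, edgeR adjusted p = 0.0519). It passed without MYC replicates 2 and 3 (-4.50, adjusted p = 0.0310), and with no other animal left out. The difference of the differences, MYC minus SHH, was 6.73 (SE 0.98, edgeR adjusted p = 0.00255). It passed with each animal left out, at 6.16 to 12.1. The 12.1 came without SHH replicate 2, when the only SHH animal had 0 Axl UMIs in tumour-gated cells, and is no bound. Of 8213 genes 607, or 7.39%, passed this test, and 2 of the 4 members tested did, Axl and Pros1.

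Monocytes held less Axl on average than macrophage/microglia-gated cells, a comparison that was not tested. In monocyte-gated cells without a tumour marker UMI it averaged 39.5 ± 33.1 CPM over 4 MYC animals and was 80.7 CPM (7 UMIs) in the 51 such cells of SHH replicate 1. The MYC animals ranged between 0.8 and 81.7 CPM, close at the top to their lowest macrophage/microglia level of 86.2 CPM.

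Mertk was a macrophage and microglia gene in these tumours. Tumour-gated cells held it at 1.52, 7.98, 0.96, 0 and 1.57 CPM in MYC replicates 1 to 5 and at 4.61 and 4.20 CPM in SHH replicates 1 and 2, where T-cell-gated cells held 0 to 3.74 CPM over all libraries. Macrophage/microglia-gated cells held 13.3, 56.3, 24.2, 54.8 and 9.37 CPM in MYC replicates 1 to 5 and 56.6 and 24.4 CPM in SHH replicates 1 and 2. Those of MYC replicates 1, 2 and 3 rest on 2, 2 and 3 UMIs. Every macrophage/microglia level lay above every tumour level.

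Mertk fell in tumour-gated cells against macrophage/microglia-gated cells of the same animal, by 3.53 on the log2 scale (SE 0.40, edgeR adjusted p = 0.000166), and was lower in 6 of 6 animals. In this comparison 2654 of 8213 genes passed, 32.3%, and so did 1 of the 4 members tested, Mertk. With 1 animal left out at a time the value lay between -3.69 and -3.35. Mertk in macrophages and microglia overlapped between the subgroups, with 27.2 ± 20.8 CPM in MYC and 40.5 ± 22.8 CPM in SHH (SD, n = 4 and 2, log2 fold change -0.93, SE 0.68, edgeR adjusted p = 0.633). With 1 animal left out that value lay between -1.90 (without MYC replicate 4) and -0.09 (without SHH replicate 1), and it did not pass. The gate difference of Mertk did not pass the test between subgroups either (0.44, SE 0.74, edgeR adjusted p = 0.809). Mertk in tumour-gated cells of the 2 SHH animals lay above all 4 MYC animals, on 59 UMIs in all for MYC and 22 for SHH. By library this did not hold, since MYC replicate 2 lay above both SHH libraries, on 4 UMIs. How many of all genes split the animals in this way was not counted, and Mertk was below the count filter of the test between subgroups in tumour-gated cells.

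**Figure D3:**
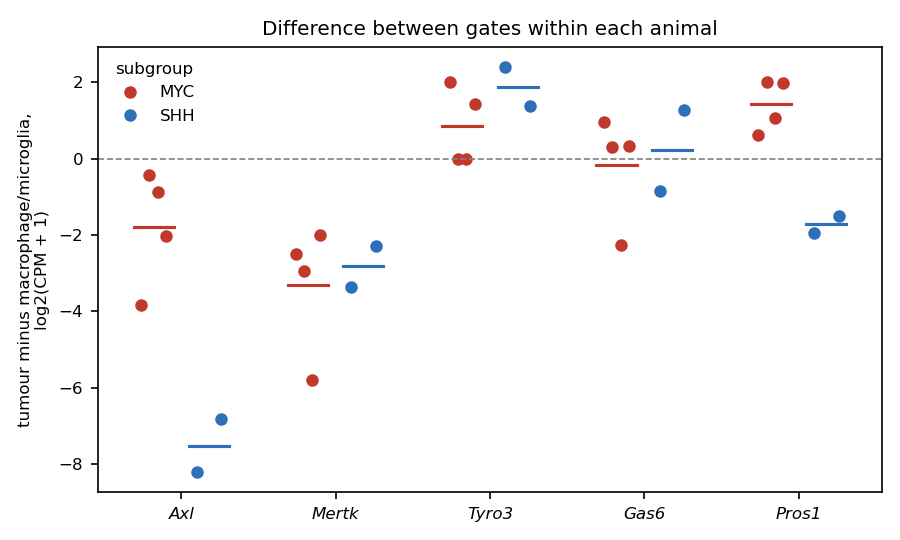
Tumour-gated minus macrophage/microglia-gated level within each animal, on log2(CPM + 1), 4 MYC and 2 SHH animals with a bar at the mean. Axl and Mertk lie below 0 in all 6 animals, and Pros1 lies above 0 in the 4 MYC animals and below 0 in the 2 SHH animals. The Pros1 value of MYC replicate 1 rests on 1 macrophage UMI.

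After thinning, Mertk was in 3.65% (5 of 137) and 1.48% (29 of 1963) of the macrophage/microglia-gated cells of MYC replicates 4 and 5 and in 5.67% (80 of 1411) and 2.53% (7 of 277) of those of SHH replicates 1 and 2. Tumour-gated cells gave 0% to 0.203% in the 5 MYC libraries and 0.754% and 0.545% in the 2 SHH libraries. T-cell-gated cells gave 0% to 0.763% over all libraries. The highest T-cell share rests on 1 of 131 cells of SHH replicate 2. In SHH replicate 1 tumour-gated cells had 4.61 CPM of Mertk (6 UMIs) and T-cell-gated cells 1.03 CPM (1 UMI), too few UMIs to place the tumour level against the background.

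Axl and Mertk were also read in the same cells. In thinned macrophage/microglia-gated cells of MYC replicate 5, 6 of the 29 Mertk-holding cells held Axl, 20.7%, beside 18.7% of the others. In MYC replicate 4 it was 1 of 5 cells. In SHH replicate 1, 22 of 80 held it, 27.5%, beside 24.4% of the others. In SHH replicate 2 it was 4 of 7 cells. These few cells are given as counts, with no test.

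Tyro3 was the rarest of the 5 genes, with 175 UMIs in all kept cells. Tumour-gated cells held 6, 0, 0, 0 and 55 of them in MYC replicates 1 to 5 and 7 and 6 in SHH replicates 1 and 2, which is 3.04, 0, 0, 0 and 1.70 CPM in MYC and 5.37 and 1.57 CPM in SHH. Macrophage/microglia-gated cells held 1 UMI in all, in SHH replicate 1. The 0 of MYC replicate 5 came from 9396105 UMIs and allows up to 0.319 CPM, below the 1.70 CPM of its tumour-gated cells. T-cell-gated cells of MYC replicate 5 held 1.49 CPM, close to its tumour level. T cells without a tumour marker UMI held 0.77 CPM (3 UMIs) over the 5 MYC libraries. The macrophage and T-cell gates thus give different backgrounds, and whether the tumour level lies above background is not settled. Tyro3 was below the count filter in every comparison and was fitted only with no filter. There tumour-gated against macrophage/microglia-gated cells gave a log2 difference of 4.41 (SE 1.20, edgeR adjusted p = 0.00808), which rests on the 1 macrophage UMI and is no bound, and the other comparisons of Tyro3 did not pass.

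**Figure D4:**
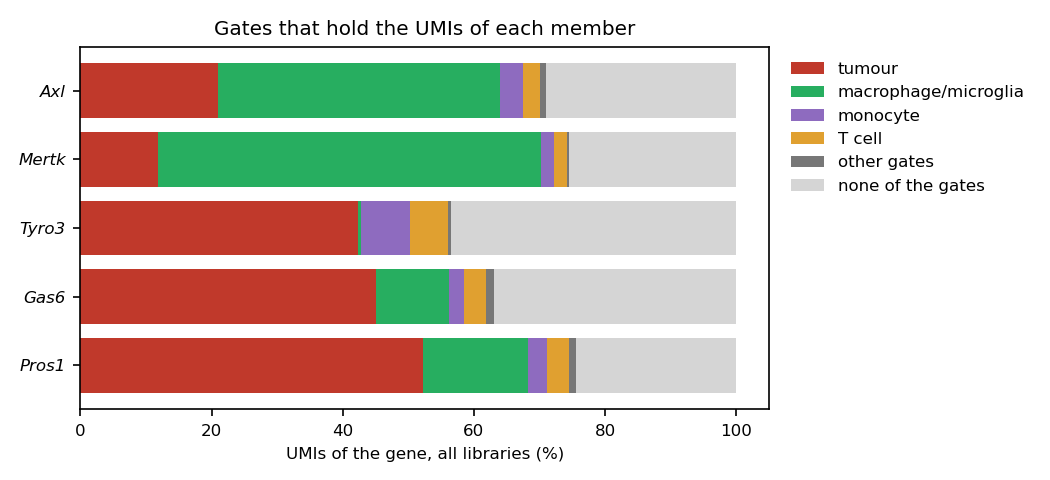
Gates that hold the UMIs of each gene, as a percentage of its UMIs over all 7 libraries, receptors above ligands. Of Mertk 58.4% lay in macrophage/microglia-gated cells, and of Pros1 52.3% and of Gas6 45.1% in tumour-gated cells. Monocytes here include cells with tumour marker UMIs. MYC replicate 5 supplies most UMIs of Axl, Tyro3, Gas6 and Pros1. Of the 682 Mertk UMIs, SHH replicate 1 supplies 319 and MYC replicate 5 supplies 263.

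Gas6, the ligand shared by all TAM receptors, was found in tumour cells and in macrophages and spread widely over the libraries of each subgroup. Tumour-gated cells held 39.6, 519.0, 14.4, 7.26 and 33.6 CPM in MYC replicates 1 to 5 and 16.1 and 114.1 CPM in SHH replicates 1 and 2. The trigeminal tumour of MYC replicate 2 had the highest level and the trigeminal tumour of MYC replicate 4 the lowest. MYC replicates 2 and 3, taken as 1 animal, lay at 519.0 and 14.4 CPM. By animal the means were 64.7 ± 77.2 CPM in MYC and 65.1 ± 69.3 CPM in SHH, with a log2 fold change of 0.22 (SE 1.16, edgeR adjusted p = 0.941).

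Macrophage/microglia-gated cells held Gas6 at 19.9, 56.3, 169.3, 38.4 and 26.4 CPM in MYC replicates 1 to 5 and at 29.7 and 46.5 CPM in SHH replicates 1 and 2. T-cell-gated cells held 0 to 1.30 CPM in 6 libraries, but 23.2 CPM in MYC replicate 5, or 13.8 CPM without cells that hold a tumour marker UMI. The macrophage level of MYC replicate 5 is thus near its own background, while those of MYC replicate 4 and both SHH libraries stand clear of theirs. By thinned shares, 3.28% (129 of 3934) of tumour-gated cells and 2.45% (48 of 1963) of macrophage/microglia-gated cells of MYC replicate 5 held Gas6, against 2.22% (21 of 947) of its T-cell-gated cells, with overlapping Wilson 95% intervals (2.77% to 3.88%, 1.85% to 3.23% and 1.45% to 3.37%). Clear of the T-cell share were the tumour-gated cells of MYC replicate 2, at 18.6% (13 of 70), and of SHH replicate 2, at 8.82% (81 of 918).

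Between subgroups the mean levels of Gas6 in macrophages were 57.2 ± 58.5 CPM in MYC and 38.1 ± 11.9 CPM in SHH (log2 fold change 0.23, SE 0.64, edgeR adjusted p = 0.935). Tumour-gated cells were higher in 4 of 6 animals (-0.26, SE 0.43, edgeR adjusted p = 0.684).

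Pros1 had higher levels in tumour cells than in macrophages of the MYC animals, and lower ones in the SHH animals. In tumour-gated cells it held 10.6, 93.8, 183.8, 41.1 and 37.6 CPM in MYC replicates 1 to 5 and 18.4 and 20.5 CPM in SHH replicates 1 and 2. In macrophage/microglia-gated cells it held 6.63, 0, 48.4, 19.2 and 8.73 CPM in MYC replicates 1 to 5 and 73.5 and 59.8 CPM in SHH replicates 1 and 2. The macrophage levels of MYC replicates 1, 3 and 4 rest on 1, 6 and 7 UMIs. Every MYC animal lay below both SHH animals in macrophages, while the subgroups overlapped in tumour cells. How many of all genes split the animals in this way was not counted, and neither subgroup difference of Pros1 passed its test.

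The gate difference of Pros1 differed between the subgroups by 4.06 on the log2 scale, MYC minus SHH (SE 0.45, edgeR adjusted p = 0.000838), and it passed with each animal left out, at 3.68 to 4.29. Within animals, tumour-gated cells were higher by 0.61 to 2.01 on log2(CPM + 1) in 4 of 4 MYC animals and lower in both SHH animals, with differences of -1.94 and -1.503. The 0.61 of MYC replicate 1 rests on 1 macrophage UMI. The limit of 3 counts there, 19.9 CPM, lies above its tumour level of 10.6 CPM, so the direction in that animal is not settled. Over both subgroups together the gates did not differ beyond their error (-0.07, SE 0.77, edgeR adjusted p = 0.959). In macrophages alone Pros1 averaged 18.04 ± 14.2 CPM in MYC and 66.7 ± 9.67 CPM in SHH (SD, n = 4 and 2). That log2 fold change of -2.37 (SE 0.52) just missed the threshold (edgeR adjusted p = 0.0578). It passed without MYC replicates 2 and 3 (-2.76, adjusted p = 0.0148), the animal with 26 such cells. With any other animal left out it did not pass. In tumour-gated cells the means were 61.0 ± 63.8 CPM in MYC and 19.4 ± 1.44 CPM in SHH (log2 fold change 1.89, SE 0.995, edgeR adjusted p = 0.287).

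The share of macrophage/microglia-gated cells with Pros1, thinned to 1000 UMIs, was 2.19% (3 of 137) in MYC replicate 4 and 0.866% (17 of 1963) in MYC replicate 5, against 8.43% (119 of 1411) and 6.14% (17 of 277) in SHH replicates 1 and 2. T-cell-gated cells of MYC replicate 5 gave 0.845% (8 of 947), so its macrophage share is at background. The macrophage level of Pros1 there, 8.73 CPM, lay below the 13.4 CPM of its T-cell-gated cells, but above the 4.58 CPM (10 UMIs) of T cells without a tumour marker UMI. Those of SHH replicate 1 gave 0.395%. Median depth was 4188 UMIs in the macrophage/microglia gate of MYC replicate 5 and 3116 in that of SHH replicate 1. Within runs, Pros1 in macrophages had 8.73 CPM in MYC replicate 5 and 73.5 CPM in SHH replicate 1, both sequenced in 2 runs. Among libraries with 1 run it reached at most 48.4 CPM in MYC and had 59.8 CPM in SHH replicate 2.

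Ligands and Axl were read in the same tumour-gated cells, thinned to 1000 UMIs. In MYC replicate 5, 6 of the 129 cells with Gas6 held Axl, 4.65%, beside 4.97% of the others, and 10 of the 160 cells with Pros1 did, 6.25%, beside 4.90% of the others. In SHH replicate 1, 0 of the 5 cells with Gas6 and 0 of the 9 cells with Pros1 held Axl. Among macrophage/microglia-gated cells of SHH replicate 1, 12 of the 119 cells with Pros1 held Mertk, 10.1%, beside 5.26% of the others, but 0 of 17 did in MYC replicate 5 and 0 of 17 in SHH replicate 2. These are counts in single libraries, with no test.

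The collagen-holding tumour cells, the class with most Axl in MYC replicate 5, held Pros1 at 12.6, 102.1, 196.3, 23.0 and 45.8 CPM and Gas6 at 72.9, 547.3, 16.6, 6.57 and 31.2 CPM in MYC replicates 1 to 5. The keratin-holding cells of MYC replicate 5 held Pros1 at 19.3 CPM (13 UMIs) and Gas6 at 32.6 CPM (22 UMIs). Gas6 thus had about the same level in both classes of that tumour, and Pros1 had the higher level in the collagen-holding class.

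The make-up of the macrophage/microglia gate moved with the subgroup. In the libraries with 20 or more such cells the 8 microglia markers summed to 418, 258 and 903 CPM in MYC replicates 1, 4 and 5 and to 2102 and 1949 CPM in SHH replicates 1 and 2. Siglech, Sall1 and Gpr34 were at 0 in MYC replicate 1, Sall1 was at 0 in MYC replicate 4, and all 8 were detected in the other 3. Tmem119 went against the sum, at 628.7 CPM in MYC replicate 5 and 562.1 and 588.2 CPM in SHH replicates 1 and 2. P2ry12 had 23.3 CPM in MYC replicate 5 and 282.2 and 292.4 CPM in SHH. Gpr34 and Olfml3 were also higher in both SHH libraries than in these MYC libraries. Sall1 had 38.2 CPM in SHH replicate 1, 5.54 CPM (5 UMIs) in SHH replicate 2 and 0.319 CPM in MYC replicate 5. Its counts of 0 in MYC replicates 1 and 4 allow up to 19.9 and 8.22 CPM, so SHH replicate 2 cannot be placed above them. The 6 markers of other macrophages summed to 1333, 1787 and 2402 CPM in MYC and to 308 and 1109 CPM in SHH. Single markers of SHH replicate 2 went against this sum. Its Ms4a7, at 916.1 CPM, lay above the 828.8 and 896.5 CPM of MYC replicates 1 and 4. Its Ccr2, at 78.6 CPM, lay above the 75.8 CPM of MYC replicate 5. In SHH replicate 1 Ms4a7 and Ccr2 had 254.5 and 18.4 CPM, below these MYC libraries. Lyve1 was at 0 in all 5 of these libraries and F13a1 also in SHH replicate 2. The 5 monocyte markers summed to 2036, 1752 and 1463 CPM in the MYC libraries and to 60.7 and 126 CPM in the SHH libraries, with Vcan at 0 in MYC replicate 4 and Ly6c2, Chil3 and Vcan at 0 in SHH replicate 2. Plac8 gave 1031 CPM of this sum in MYC replicate 4, and MYC tumour-gated cells held it too, at 139.5 to 1522 CPM. Ly6c2 alone had 238.7, 170.0 and 133.2 CPM in the MYC libraries and 1.73 CPM in SHH replicate 1. The part of this make-up in the results on Axl and Pros1 in macrophages was not tested.

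**Figure D5:**
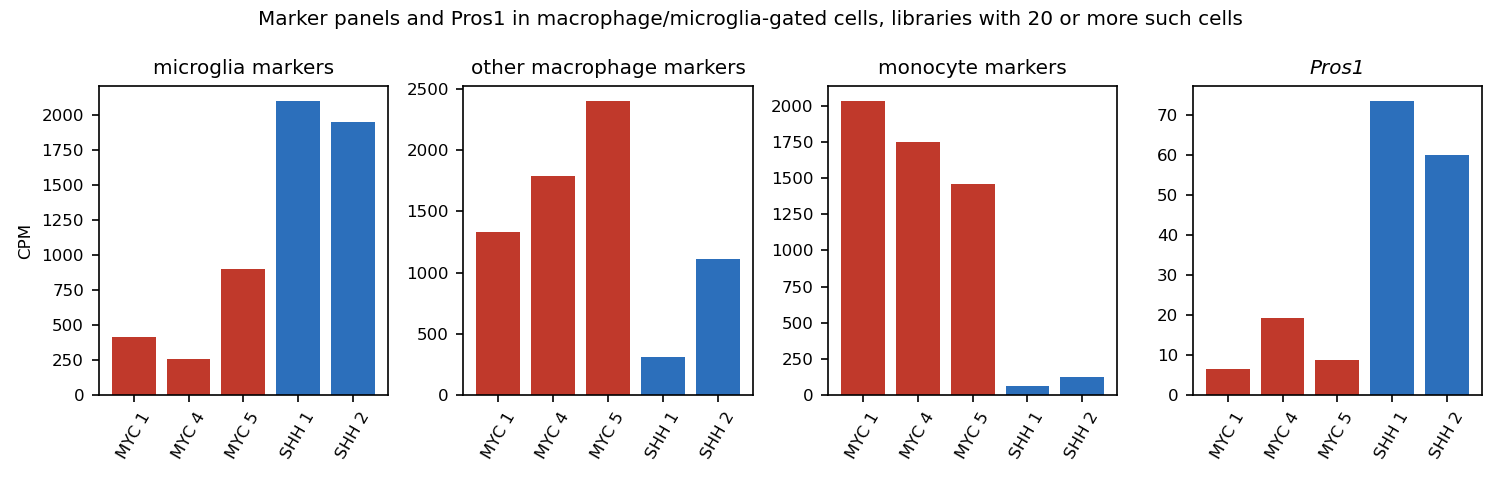
Summed CPM of the microglia, other macrophage and monocyte markers, and CPM of Pros1, in macrophage/microglia-gated cells of the libraries with 20 or more of them, MYC in red and SHH in blue. The summed microglia markers and Pros1 are higher in both SHH libraries (2102 and 1949 CPM for the markers) than in the 3 MYC libraries. Among the microglia markers Tmem119 was highest in MYC replicate 5, at 628.7 CPM.

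Splitting the gate gave values for microglia and for other macrophages, each with 20 or more cells in 2 animals, MYC replicate 5 and SHH replicate 1. Pros1 held 22.3 CPM (4 UMIs) in microglia-gated and 10.2 CPM (7 UMIs) in other macrophage-gated cells of MYC replicate 5, and 91.2 CPM (288 UMIs) and 14.2 CPM (1 UMI) in those of SHH replicate 1. The 60 microglia-gated cells of SHH replicate 2 held 130.4 CPM. Mertk held 5.56 CPM (1 UMI) in microglia-gated and 11.6 CPM (8 UMIs) in other macrophage-gated cells of MYC replicate 5, and 71.9 CPM (227 UMIs) and 14.2 CPM (1 UMI) in those of SHH replicate 1. The 81 other macrophage-gated cells of MYC replicate 4 held Mertk at 41.9 CPM. The 60 microglia-gated cells of SHH replicate 2 held Mertk at 43.5 CPM (7 UMIs), close to those other macrophages. Microglia-gated cells numbered 3, 0, 6, 2 and 33 in MYC replicates 1 to 5 and 987 and 60 in SHH replicates 1 and 2.

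Axl in microglia and in other macrophages did not differ beyond its error. It held 189 CPM in microglia-gated and 155 CPM in other macrophage-gated cells of MYC replicate 5, and 284.2 and 283.7 CPM in those of SHH replicate 1 (log2 difference 0.08, SE 0.30, edgeR adjusted p = 0.999). Gas6 held 44.5 CPM in microglia-gated and 10.2 CPM in other macrophage-gated cells of MYC replicate 5, and 38.3 and 14.2 CPM in those of SHH replicate 1 (1.90, SE 0.66, edgeR adjusted p = 0.737). In this test 10 of 4391 genes passed, 0.228%, and 0 of the 2 members tested, Axl and Gas6, did, with 1 at an unadjusted p under 0.05 and 0 with DESeq2.

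Genes with the most similar pattern were ranked by Pearson correlation of log2(CPM + 1) over 30 sums of library and gate, in 8 gates, among 7992 genes. The sums share libraries and depth, so the values are descriptions. Axl was nearest to Ang (r = 0.85), Ly96 (0.83), Slc6a6 (0.82), Scarb2 (0.81) and Cttnbp2nl (0.80). Mertk was nearest to Slc7a8 (0.88), Tmem86a (0.85), Cxcl14 (0.85), Tmem37 (0.82) and Ctsb (0.81). Gas6 was nearest to Pmp22 (0.85), Mbnl2 (0.84), Ank2 (0.83), Ctsf (0.82) and Prdx1 (0.82), and Pros1 to Bmpr2 (0.91), Myo9a (0.89), Ctsf (0.87), Gamt (0.86) and Zcchc24 (0.85). Tyro3, at 0 in 20 of the 30 sums, was nearest to Adgrl2 (0.77), Pcdh17 (0.76), Cnep1r1 (0.72), Jam2 (0.70) and Etv4 (0.69).

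The wider pathway was read from 7 lists with 57 genes in all: the vitamin K cycle, the sheddases that cut the receptors, other Mertk ligands, other receptors for dying cells, exposure of phosphatidylserine, engulfment machinery, and signalling partners. In tumour-gated against macrophage/microglia-gated cells, 3 of the 39 tested genes rose and 20 fell, beside 15.6% and 16.7% of all genes. Their median log2 difference was -1.21, against 0.10 over all genes tested.

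Both sheddases fell in tumour cells. Adam17 averaged 16.7 ± 4.26 CPM in tumour-gated and 53.4 ± 12.9 CPM in macrophage/microglia-gated cells (SD, n = 6 animals, log2 difference -2.07, SE 0.33, edgeR adjusted p = 0.00127), and Adam10 36.8 ± 12.8 and 74.1 ± 27.8 CPM (-1.35, SE 0.31, edgeR adjusted p = 0.00957). Nqo1, a quinone reductase that can reduce vitamin K, was the 1 of 4 genes of the vitamin K cycle that rose, at 65.7 ± 45.8 CPM in tumour-gated and 1.87 ± 2.64 CPM in macrophage/microglia-gated cells (4.85, SE 0.42, edgeR adjusted p = 3.28e-05). Lgals3, a galectin reported as a Mertk ligand, fell, at 117 ± 117 CPM in tumour-gated and 1442 ± 1267 CPM in macrophage/microglia-gated cells (-4.25, SE 0.40, edgeR adjusted p = 5e-05), and it was the 1 gene tested of that list of 3.

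Of 9 tested receptors and bridges for dying cells 4 fell and 0 rose in tumour cells. They were the phosphatidylserine receptors Havcr2 (-6.56), Cd300lf (-6.09) and Stab1 (-6.61) and the integrin chain Itgb5 (-3.04). Havcr2, Cd300lf and Stab1 averaged only 0.640, 0.977 and 0.587 CPM in tumour-gated cells, and Dock2, below, 0.737 CPM. These levels are near the floor of the counts, so the sizes of those falls are uncertain. Of 11 engulfment genes 5 fell, among them Dock2 (-6.54), Ucp2 (-5.24) and Elmo1 (-3.45), and 2 rose, among them the adaptor Gulp1 (3.65, 14.5 ± 4.63 CPM in tumour-gated and 0.697 ± 1.30 CPM in macrophage/microglia-gated cells). All 8 tested signalling partners fell, and the 4 with the smallest p were Tnfaip3 (-4.20), Ifnar2 (-3.10), Grb2 (-2.05) and Ifnar1 (-1.94). Ifnar1 and Ifnar2 are the interferon receptor chains with which TAM receptors signal. None of the 4 tested genes for exposure of phosphatidylserine passed.

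The lists were also read between subgroups. In tumour-gated cells of MYC against SHH 2 of 41 tested list genes rose and 1 fell, beside 3.64% and 3.27% of all genes. These counts are near the shares over all genes and show nothing particular to the lists. At an unadjusted edgeR p under 0.05 there were 12 list genes, and 9 passed with DESeq2. Their median log2 fold change was 1.18, against 0.04 over all genes. Ano6, a scramblase that exposes phosphatidylserine, rose to 67.2 ± 32.7 CPM in MYC, against 16.2 ± 0.100 CPM in SHH (2.32, SE 0.52, edgeR adjusted p = 0.0477). Megf10, an engulfment receptor of astrocytes, fell to 0.634 ± 0.919 CPM in MYC, against 18.7 ± 9.38 CPM in SHH (-4.45, SE 0.93, edgeR adjusted p = 0.0395). Its MYC level is near the floor of the counts. The calls of Ano6 and Megf10 rest on few animals: both were lost without MYC replicate 5 (adjusted p = 0.0799 for Ano6 and 0.0826 for Megf10), without SHH replicate 1 (0.314 for Ano6 and 0.366 for Megf10) and without SHH replicate 2 (0.304 for Ano6 and 0.216 for Megf10). Without MYC replicate 1 the adjusted p was 0.0611 for Ano6, and without MYC replicate 4 it was 0.0600 for Megf10.

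In macrophage/microglia-gated cells of MYC against SHH 0 of 34 tested list genes rose and 1 fell, beside 0.953% and 0.492% of all genes, with 8 at an unadjusted p under 0.05 and 4 passing with DESeq2. The median was 0.01, against 0.03 over all genes. The gene that fell was Cd36, a scavenger receptor for lipids and dying cells, with a mean of 12.0 ± 7.32 CPM in MYC animals and 97.9 ± 66.7 CPM in SHH animals (-3.56, SE 0.63, edgeR adjusted p = 0.0250). It lost its call without MYC replicate 5 (adjusted p = 0.0609), SHH replicate 1 (0.0622) or SHH replicate 2 (0.244).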

How the data were processed

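Droplet single-cell RNA sequencing of 7 tumours was used. The deposited values are unnormalized UMI counts, made by the authors with Cell Ranger 2.0.2 on mm10, per the submitters' processing notes; the annotation and strand setting are not given in the sources used here. Kept cells had at least 500 UMIs, 200 genes and no more than 20% of UMIs from mitochondria. The cells with the highest doublet scores (Scrublet in scanpy 1.11.5), 0.8% for every 1000 cells of a library, 2039 in all, were removed. UMIs were summed per animal and gate where 20 or more cells were present and tested over all genes with edgeR 4.0.16 (TMM, filterByExpr, quasi-likelihood F test, R 4.3.3), with Benjamini-Hochberg adjustment and a threshold of 0.05; the animal was a term in comparisons of gates. The fits were also run on simulated counts with the same fixed spread for every gene, which does not show how they behave for the 5 members. P-values measure the spread between animals. The members, gene lists and tests were chosen with earlier results of these data known. Genes named are the 5 members, up to 4 passing genes per list with the smallest p, and the 5 genes most alike in pattern to each member; 1 passing list gene is not reported here. DESeq2 1.42.0, other filters, gates and scalings and each animal left out were alternatives.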

Additional observations from a re-analysis of the deposited data

Results flagged for a closer look

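The tumour-against-macrophage difference of Axl differed between subgroups by 6.73 on the log2 scale and that of Pros1 by 4.06, MYC minus SHH. Both passed the test of the difference itself (edgeR adjusted p = 0.00255 and 0.000838).

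Gas6 in macrophage/microglia-gated cells stood apart in the animal of MYC replicates 2 and 3, at 144.2 CPM, where the other 3 MYC animals had 19.9 to 38.4 CPM. That animal had 26 such cells. In MYC replicate 5, the deepest library, T-cell-gated cells stood apart for Gas6 at 23.2 CPM and for Tyro3 at 1.49 CPM, and monocyte-gated cells without tumour markers for Gas6 at 19.5 CPM and for Tyro3 at 3.89 CPM. The Tyro3 values rest on 9 and 4 UMIs, with 0 in the other MYC animals. These are 5 of 19 groups of 4 MYC animals examined, where chance gives about 1 in 20 groups. That rate does not hold for 3 of the 5, in which the other 3 animals are at 0 and any UMI of the deepest library stands apart, and Tyro3 is not listed in MYC replicates 2, 3 and 4.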

How the results depend on the processing

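Of 216 recomputed results on the 5 genes 187 kept their direction and side of the threshold, 14 newly passed, 0 lost a call and 15, none of them called, changed sign. No cause was tested. All values are log2 differences. Only 1 MYC and 2 SHH animals have enough tumour cells without collagen UMIs, an alternative chosen after seeing the data, so a call there adds no replicated evidence. Using libraries in place of animals drops MYC replicates 2 and 3 wherever macrophages enter, and is there the same fit as leaving out that animal. Axl in tumour-gated cells of MYC against SHH passed with DESeq2 (6.17) and in cells without collagen UMIs (4.87), and lay between 5.32 and 12.1 with 1 animal left out. There Gas6 was -0.29 without collagen cells and between -0.97 and 2.26 with an animal left out. Pros1 in macrophage/microglia-gated cells passed with DESeq2 (-2.28), with no filter (-2.42), with looser gates (-2.55) and with libraries in place of animals (-2.76), and lay between -2.76 and -1.84 with an animal left out. Gas6 there was -0.51 with libraries in place of animals, -0.0089 with sequencing runs as a covariate and between -0.51 and 0.58 with an animal left out. In each of these comparisons 1 member passed in those settings, and also in tumour cells without MYC replicate 1 and in macrophages without MYC replicates 2 and 3, against 0 as reported. In tumour against macrophage/microglia cells, Axl passed with DESeq2 (-3.79), no filter (-3.59), looser gates (-3.63), libraries in place of animals (-4.50) and without collagen cells (-6.31), and lay between -4.50 and -2.71 with an animal left out. Pros1 there was 0.0854 with DESeq2 and between -0.63 and 0.58 with an animal left out, and Gas6 between -0.48 and 0.021. The members passing were 1 in the reported fit, 3 with no filter (Axl, Mertk and Tyro3) and 2 with DESeq2, looser gates, libraries in place of animals, collagen-free cells and without MYC replicates 2 and 3. In the difference between subgroups Gas6 was -0.18 with stricter gates and between -0.76 and 1.47 with an animal left out, and Mertk between -0.36 and 1.0.

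Genes called in tumour cells of MYC against SHH numbered 746, against 1756 with DESeq2, 428 with sequencing runs as a covariate and 1899 without collagen cells, and in macrophages 91, against 285 with DESeq2 and 243 with no filter. Tumour against macrophage cells gave 2654, against 5394 with no filter. Microglia against other macrophages gave 10, against 43 with no filter, 20 with looser gates and 85 with doublets kept. The difference between subgroups gave 607, against 1149 with no filter and 1339 without collagen cells. Leaving out an SHH animal left 13 to 24, 5 to 15 and 168 to 174 genes in the 2 subgroup comparisons and their difference. Without MYC replicate 5 the tumour count was 377 and the difference gave 333, and macrophages gave 186 without MYC replicates 2 and 3 and 143 without MYC replicate 4. Of 281 recomputed results on list genes 258 kept their call and 23 lost it. Of 124 shares 65 were counted as moved with depth. That count includes the shares of Mertk-holding cells with Axl, which were set as moved without comparison to an interval. Microglia could not be refitted with an animal left out, since 2 animals enter. No paired analysis was possible because, between the subgroups, each animal belongs to 1 of them and replicate numbers mark no shared source; gates were compared within animals throughout.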

Other observations

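The endothelial and mural gates reached 20 or more cells in MYC replicate 5 alone. There 27 endothelial-gated cells held Axl at 95.2 CPM, Gas6 at 56.0 CPM and Pros1 at 61.6 CPM, and 57 mural-gated cells held Axl at 54.4 CPM, Gas6 at 71.3 CPM and Pros1 at 15.0 CPM. Smarcb1 was 39.2 CPM in the endothelial-gated cells but 3.75 CPM in the mural-gated cells, inside the range of tumour-gated cells. Whether the mural-gated cells are vessel cells or tumour cells is not settled. The 96 neutrophil-gated cells of MYC replicate 2 held 0 UMIs of all 5 genes, which allows up to 3.36 CPM each.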
